A study of Homo sapiens with 8 samples.

Results

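The protein-coding genes of chromosome 19 whose symbols start with ZNF and a number were examined in EndoC-βH5 cells, a human beta-cell line, with and without pro-inflammatory cytokines. They were taken by biotype, chromosome and symbol alone, without use of their values, and 220 of the 16525 listed genes met these criteria. The 234 protein-coding ZNF genes of the other chromosomes and the 771 other protein-coding genes of chromosome 19 served for comparison. The RNA came from 4 untreated control cultures and from 4 cultures that had received IL-1β, IFNγ and TNFα together for 48 h. EndoC-βH5 is a single line derived from fetal pancreas, from which the immortalising transgenes have been removed, and no other cell line or primary islet was sequenced here. Levels are in CPM, reads on a gene scaled to the size of the library, and 1 read equalled 0.0196 to 0.0214 CPM. The table gives no replicate numbers. The column names of controls and cytokine libraries match pairwise in their first part, and these pairs are called A, B, C and D. Nothing in the labels says whether the 4 cultures of a group were grown separately, so p-values measure only the spread between these samples, which may be technical.

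C2H2 zinc finger proteins bind DNA with a string of small fingers, each a short loop in which cysteines and histidines hold a zinc ion. On chromosome 19 the genes lie in clusters that grew by repeated duplication, and most of their proteins also carry a KRAB domain at the amino-terminal end. The KRAB domain binds TRIM28 (KAP1), which brings the histone methyltransferase SETDB1 and HP1 proteins to the DNA, and many of these proteins silence transposable elements in this way. In GENCODE 29, the longest coding sequence of 184 of the 220 genes (83.6%) held a stretch like the KRAB A box, against 90 of the 234 ZNF genes of other chromosomes (38.5%). The number of fingers found by pattern had a median of 12 (interquartile range 9 to 15, range 0 to 32), and the median on other chromosomes was 9. Of 2734 fingers, 1458 were followed by the linker that joins neighbouring fingers in this family, and 207 of the 220 genes had at least 1 such linker.

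The coding sequence of 1 finger and its linker is shown for the 4 genes that rose without overlap between the groups and for the 2 genes with the largest falls, since it shows what makes these genes a family. Each is the first finger with a full linker, written 5′ to 3′ on the coding strand from GENCODE 29 on GRCh38, and the capitals mark the codons of the 2 cysteines and 2 histidines.
ZNF460: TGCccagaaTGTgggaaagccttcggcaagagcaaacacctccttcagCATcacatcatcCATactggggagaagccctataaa
ZNF536: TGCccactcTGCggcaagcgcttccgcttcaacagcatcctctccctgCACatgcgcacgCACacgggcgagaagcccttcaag
ZNF274: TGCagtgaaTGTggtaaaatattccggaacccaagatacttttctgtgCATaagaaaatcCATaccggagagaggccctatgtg
ZNF121: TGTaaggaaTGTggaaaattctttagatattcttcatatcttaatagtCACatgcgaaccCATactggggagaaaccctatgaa
ZNF726: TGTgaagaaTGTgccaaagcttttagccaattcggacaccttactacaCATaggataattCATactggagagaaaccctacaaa
ZNF85: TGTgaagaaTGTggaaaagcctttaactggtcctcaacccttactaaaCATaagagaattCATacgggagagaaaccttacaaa
These 84 bases lie at chr19:57291133-57291216 (+, exon 3 of 3) in ZNF460, chr19:30443956-30444039 (+, exon 2 of 5) in ZNF536 and chr19:58212706-58212789 (+, exon 8 of 8) in ZNF274. They lie at chr19:9566594-9566677 (-, exon 6 of 6) in ZNF121, chr19:23933143-23933226 (+, exon 4 of 7) in ZNF726 and chr19:20949124-20949207 (+, exon 4 of 4) in ZNF85. ZNF726 and ZNF85, which lie in the same cluster, shared 67 of the 84 bases, whereas ZNF460 shared 56 with ZNF726 and 49 with ZNF536. ZNF536, which stands alone and lacks the KRAB pattern, has the same pattern of cysteines and histidines, with the codons TGC, TGC, CAC and CAC.

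The KRAB A stretch is shown for 4 genes because its last codons differ between them. The capitals mark the last 2 codons.
ZNF460: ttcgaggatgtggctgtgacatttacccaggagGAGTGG
ZNF274: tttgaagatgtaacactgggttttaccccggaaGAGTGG
ZNF726: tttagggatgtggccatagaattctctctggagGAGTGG
ZNF224: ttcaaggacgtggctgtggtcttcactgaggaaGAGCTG
The stretches lie at chr19:57284563-57284601 (ZNF460, exon 2), chr19:58185724-58185762 (ZNF274, exon 3), chr19:23919385-23919423 (ZNF726, exon 2) and chr19:44100813-44100851 (ZNF224, exon 4), all on the + strand of GRCh38. The last codon is tgg in the first 3 genes and ctg in ZNF224.

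The genes were expressed at low levels. The median of their mean CPM over the 8 libraries was 6.18 (range 0.426 to 70.9), against 12.9 for the ZNF genes of other chromosomes, 32.1 for the other protein-coding genes of chromosome 19 and 13.4 for all genes. Per kilobase of annotated exon the medians were 1.07, 2.36, 8.16 and 2.98 CPM. The summed level of all 220 genes was 1979, 1996, 2282 and 2319 CPM in control libraries A to D, and 1855, 1861, 1988 and 2078 CPM in cytokine libraries A to D. The sum was lower with cytokines in every pair, but the groups overlapped, since the cytokine libraries C and D lay above control A. No gene had fewer than 8 reads in any library, and 13 had fewer than 20 reads in at least 1. In bulk RNA, fewer cells that express a gene and less of its RNA per cell cannot be told apart.

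Cytokine exposure changed few of these genes, and most of those that changed fell. A gene was called when the absolute log2 fold change exceeded 0.5 at a false discovery rate below 0.05 (limma, adjusted over all 16525 genes). By this rule 5 of the 220 genes rose and 30 fell. The background was higher in both directions: 9.52% of all genes rose and 17.5% fell, against 2.27% and 13.6% of the chromosome 19 ZNF genes. On other chromosomes 10 ZNF genes rose (4.27%) and 24 fell (10.3%), and among the other protein-coding genes of chromosome 19, 73 rose and 121 fell. With TMM scaling, which moved the median over all genes from -0.17 to -0.02 on the log2 scale, the split became 9 higher and 13 lower, against a background of 13.0% higher and 11.7% lower. With a replicate block for the pairs it was 7 higher and 45 lower (background 11.6% and 23.8%), and with TMM and the block 12 higher and 23 lower (15.8% and 16.4%). All 35 calls were kept with the block, and 5 of 5 rises and 13 of 30 falls were kept with TMM. Of the 35 calls 13 were kept in each of the 8 fits that left out a library, and such fits also have fewer libraries to test. Without control library D 6 genes rose and 15 fell (background 9.09% and 14.5%), without cytokine library A 3 and 15 (8.70% and 15.0%), and without cytokine library B 3 and 16 (8.99% and 15.2%). The rises numbered 2 without control library A, control library B or cytokine library D (8.57%, 8.32% and 8.45% of all genes), with 33, 24 and 30 falls (17.7%, 15.6% and 16.3%). A test against a change of 0.5 itself (limma's treat) called none of the 220 genes, and 4.43% and 3.91% of all genes in the upward and downward direction. At an unadjusted p under 0.05, 59 of the 220 genes (26.8%) passed limma's test, against 42.0% of all genes.

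The largest rise was that of ZNF460, a KRAB zinc finger gene at chr19:57280051-57293569 (+) in the cluster at the long-arm end of the chromosome. Its level was 0.30, 0.85, 1.49 and 0.84 CPM in control libraries A to D and 2.87, 1.82, 3.66 and 3.58 CPM in the cytokine libraries. All cytokine libraries lay above all controls, and the lowest control rested on 14 reads. The means were 0.870 ± 0.488 and 2.98 ± 0.855 CPM (SD, n = 4), a 3.43-fold difference, with a log2 fold change of 1.78 ± 0.398 (SE), at an adjusted p of 0.00659. The exact permutation test of 4 against 4 libraries gave p = 0.0286, the smallest it can give, for this gene and for every other named gene whose groups did not overlap. Its exons share 487 bases with an antisense RNA. Another antisense RNA named after it, ZNF460-AS1, had a log2 fold change of -0.23 (adjusted p = 0.708).

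ZNF536, which restrains neuronal differentiation and has no KRAB pattern, was the only member of its cluster, at chr19:30228290-30713538 (+). It had 11.3, 11.5, 18.8 and 14.8 CPM in control libraries A to D and 26.2, 23.8, 34.1 and 31.1 CPM in the cytokine libraries. The groups were well apart, at means of 14.1 ± 3.50 and 28.8 ± 4.65 CPM (SD, n = 4). It rose 2.04-fold, with a log2 fold change of 1.04 ± 0.187 (SE), at an adjusted p of 0.00185. Both ZNF460 and ZNF536 stayed called under each of the 8 fits that left out a library. Part of the exons of ZNF536 (902 bases) overlaps another gene on the same strand, and 9.32% of its 100-base windows occur in another gene.

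ZNF274, which binds the 3′ ends of zinc finger genes and brings SETDB1 to them, rose by less. Control libraries A to D had 17.3, 19.7, 26.6 and 27.5 CPM, and cytokine libraries had 28.96, 29.7, 34.6 and 36.9 CPM. The lowest cytokine library was just above the highest control. The log2 fold change was 0.53 ± 0.170 (SE), at an adjusted p of 0.0353. ZNF121, a finger protein without the KRAB pattern, had 9.26, 9.99, 11.3 and 13.7 CPM in control libraries and 16.6, 13.97, 14.1 and 18.6 CPM in cytokine libraries. Its lowest cytokine library exceeded the highest control by less than 1 CPM. The log2 fold change was 0.52 ± 0.164 (SE), at an adjusted p of 0.0342. Both were more clearly apart with TMM, with adjusted p-values of 0.00336 for ZNF274 and 0.00515 for ZNF121. Without control library A, control library B or cytokine library D neither was called, and ZNF274 was not called without cytokine library B or C, nor ZNF121 without cytokine library A (adjusted p = 0.0530 to 0.0970).

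ZNF224, a KRAB repressor that also partners with WT1, passed the threshold by a narrow margin although its groups overlapped. It had 11.7, 12.5, 12.6 and 18.97 CPM in control libraries A to D and 20.6, 21.02, 15.5 and 31.99 CPM in cytokine libraries. Every pair moved up, but cytokine library C lay below control D. The log2 fold change was 0.65 ± 0.226 (SE), at an adjusted p of 0.0499, and the call was kept in only 2 of the 8 fits without a library, those without control D or cytokine library C. With the pairs as a block its adjusted p was 7.71e-05. An antisense RNA shares 2875 bases of its exons.

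The largest fall was that of ZNF726, a KRAB gene with 16 fingers at chr19:23914876-23945159 (+). It had 0.92, 0.95, 0.98 and 1.90 CPM in control libraries A to D and 0.36, 0.51, 0.40 and 0.42 CPM in cytokine libraries. Control D stood well above the other controls, but all 4 controls were above all cytokine libraries. The log2 fold change was -1.24 ± 0.288 (SE), at an adjusted p of 0.00799, on 17 to 97 reads per library. A gene was listed only if 4 or more samples exceeded 0.5 CPM. ZNF726 met this through its controls, with only cytokine library B also above 0.5 CPM. ZNF85, a KRAB repressor in the same cluster at chr19:20923222-20950697 (+), had 1.45, 0.68, 1.07 and 1.29 CPM in control libraries and 0.62, 0.36, 0.34 and 0.56 CPM in cytokine libraries. Its highest cytokine library was just below control B. The log2 fold change was -1.09 ± 0.304 (SE), at an adjusted p of 0.0199, and the call was lost without control D or cytokine library B (adjusted p = 0.0522 and 0.0585).

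ZNF233 and ZNF792, both KRAB genes, fell by like amounts, with means 2.09-fold and 2.07-fold higher in controls. ZNF233 had 3.42, 3.13, 4.04 and 3.32 CPM in control libraries A to D and 2.11, 1.39, 1.61 and 1.55 CPM in cytokine libraries, with a log2 fold change of -1.03 ± 0.200 (SE), at an adjusted p of 0.00298. ZNF792 had 2.74, 2.56, 3.62 and 3.09 CPM in control libraries and 1.51, 1.28, 1.37 and 1.65 CPM in cytokine libraries, with a log2 fold change of -0.99 ± 0.200 (SE), at an adjusted p of 0.00369. Neither gene's groups overlapped, and both stayed called under each of the 8 fits that left out a library. ZNF233 overlaps ZNF235, called lower as well, on the opposite strand by 170 exonic bases.

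**Figure D1:**
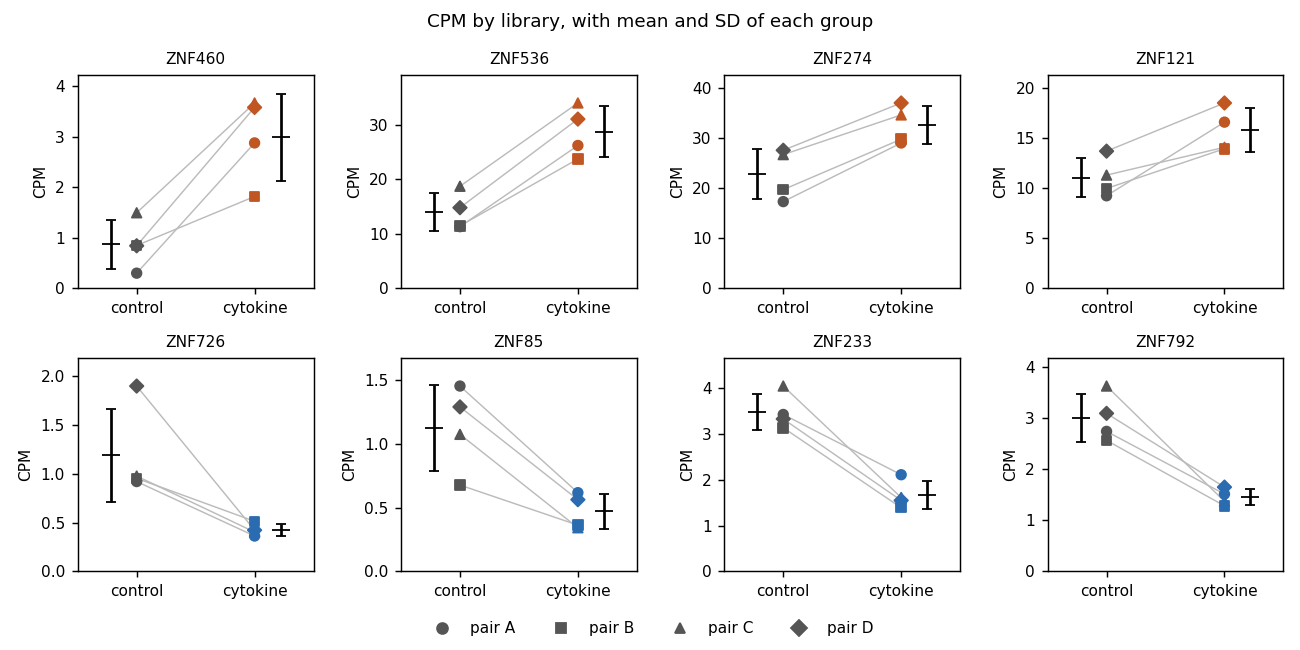
CPM (vertical axes, starting at 0) of 4 genes that rose (top) and 4 that fell (bottom) in control and cytokine libraries; lines join the libraries of a pair, and bars beside the points give the mean and SD of 4 libraries. In each panel all control libraries lie on one side of all cytokine libraries, and control D of ZNF726 (1.90 CPM) stands above the other controls.

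The falls of ZNF835, ZNF285, ZNF528 and ZNF837 ranged in log2 fold change from -0.94 to -0.84. ZNF528 was the most abundant of them, with 9.13, 7.32, 6.31 and 10.6 CPM in control libraries A to D and 4.17, 4.61, 3.16 and 5.65 CPM in cytokine libraries (adjusted p = 0.0105). ZNF285 went from 3.85 ± 0.463 to 2.02 ± 0.554 CPM (SD, n = 4, adjusted p = 0.00996). ZNF835 went from 2.00 ± 0.425 to 0.987 ± 0.160 CPM (adjusted p = 0.0122) and ZNF837 from 4.73 ± 0.668 to 2.60 ± 0.430 CPM (adjusted p = 0.00762), and neither has the KRAB pattern. These 4 genes were called lower in every fit that left out a library and with TMM.

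ZNF578 and ZNF682 fell with less certainty in the fits without a block for the pairs. ZNF578 went from 1.23 ± 0.131 to 0.665 ± 0.172 CPM (SD, n = 4), with a log2 fold change of -0.82 (adjusted p = 0.0279). ZNF682 went from 4.09 ± 1.07 to 2.28 ± 0.427 CPM, with a log2 fold change of -0.80 (adjusted p = 0.0220). With TMM in limma neither was called (adjusted p = 0.0690 and 0.0519). edgeR with TMM called ZNF682 (adjusted p = 0.0462) but not ZNF578 (0.0841). With the block both were called in limma (adjusted p = 0.00764 for ZNF578 and 0.000607 for ZNF682). They also were with TMM and the block (0.0197 and 0.00293). In limma without TMM or the block, both calls were lost without control D or cytokine library A. That of ZNF578 was also lost without control B or cytokine library C or D. That of ZNF682 was also lost without control A or cytokine library B. The adjusted p-values of these lost calls were 0.0506 to 0.0788. The other 20 genes that fell had log2 fold changes of -0.76 to -0.51, and 4 of them stayed called in each of the 8 fits that left out a library (ZNF607, ZNF738, ZNF470 and ZNF304, picked out after their values were seen).

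The genes of low mean CPM fell more often than those of high mean CPM, a difference that was not tested and that all genes showed as well. Of the 74 ZNF genes of lowest mean CPM (0.426 to 4.17), 14 fell and 1 rose, with a median log2 fold change of -0.35. Among all genes in that range of CPM 20.98% fell and 7.36% rose, and their median was -0.36. Of the 74 genes of highest mean CPM (9.48 to 70.9), 6 fell and 4 rose, with a median of -0.12, and of all genes in that range 15.5% fell and 10.3% rose, with a median of -0.09. The 72 genes in between had 10 falls, no rise and a median of -0.15, against 22.4% falls, 8.59% rises and a median of -0.25. With TMM the balance among the 74 genes of highest mean CPM turned, with no fall, 6 rises and a median of 0.03. The 72 genes in between then had 4 falls and 1 rise, and the lowest 74 had 9 falls and 2 rises. Over all genes of every level 11.7% fell and 13.0% rose with TMM. Shares of all genes within each range of CPM were not computed with TMM, so these backgrounds are unlike those above.

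**Figure D2:**
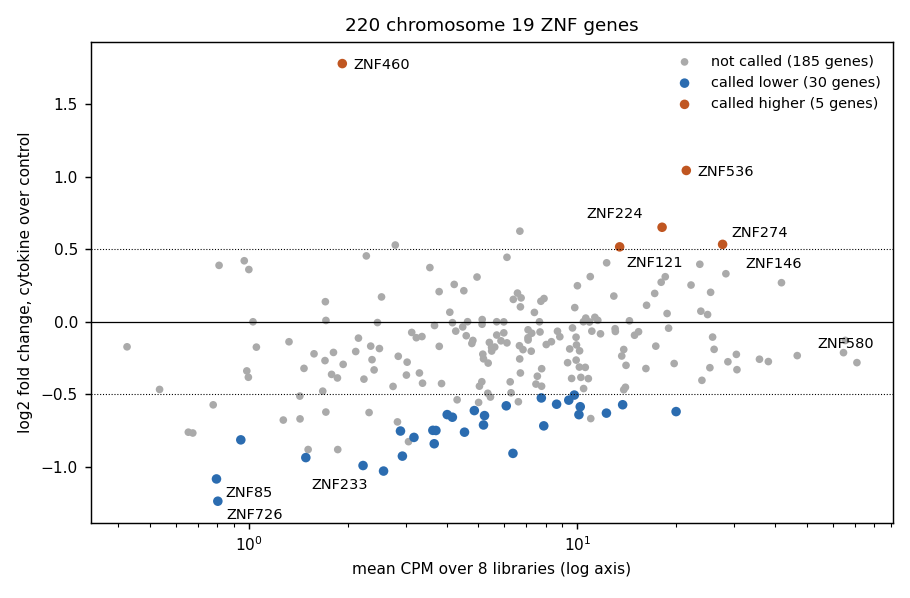
Log2 fold change (cytokine over control) of the 220 chromosome 19 ZNF genes against their mean CPM over 8 libraries on a log axis; dotted lines mark the threshold of 0.5. The 30 genes called lower lie mostly below 10 CPM, and 4 of the 5 called higher lie above it.

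The 5 genes of highest mean CPM did not pass the test. ZNF580 had 106.7, 104.6, 51.5 and 48.9 CPM in control libraries A to D and 76.6, 94.3, 40.3 and 44.1 CPM in cytokine libraries, so that pairs A and B stood above pairs C and D in both groups. Its log2 fold change was -0.28 ± 0.334 (SE), at an adjusted p of 0.563, and 407 bases of its exons overlap other genes on the same strand. The log2 fold changes were -0.13 for ZNF358 (adjusted p = 0.716), -0.21 for ZNF579 (0.177) and -0.23 for ZNF428 (0.423). That of ZNF358 turned to 0.02 with TMM. ZNF146, which consists of fingers without a KRAB domain, had means of 38.2 ± 9.31 and 45.3 ± 6.18 CPM (SD, n = 4) and a log2 fold change of 0.27 (adjusted p = 0.298).

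The 4 named genes best known for silencing transposable elements were not called, and no full list of such genes was examined. ZNF91, which represses SVA and LINE-1 elements, had 13.6, 15.8, 21.3 and 21.6 CPM in control libraries A to D and 12.3, 13.5, 15.1 and 16.1 CPM in cytokine libraries. Each pair was lower, but cytokine library D lay above 2 of the controls, A and B, and the log2 fold change was -0.32 ± 0.176 (SE), at an adjusted p of 0.189. ZNF93, which targets LINE-1 elements, had a log2 fold change of -0.43 ± 0.192 (SE), at an adjusted p of 0.116. With the pairs as a block limma's adjusted p-values were 0.00901 for ZNF91 and 0.0299 for ZNF93, at fold changes short of the threshold. With TMM and the block they were 0.0790 and 0.110. ZNF417 and ZNF587, near-identical neighbours that target HERV-K, had log2 fold changes of -0.22 (adjusted p = 0.373) and 0.01 (adjusted p = 0.984). Of their 100-base windows 25.9% and 11.4% occur in another gene, so that reads from these stretches may not be assignable to 1 gene.

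Other genes of known role also stayed below the threshold. ZNF473, which takes part in the processing of histone pre-mRNA, had 28.3, 33.2, 37.2 and 32.8 CPM in control libraries A to D and 26.4, 26.8, 31.1 and 27.8 CPM in cytokine libraries, with a log2 fold change of -0.23 (adjusted p = 0.189). ZNF350, a partner of BRCA1, had means of 4.61 ± 0.557 and 4.65 ± 0.893 CPM (SD, n = 4). The imprinted gene ZNF331 had 18.5, 16.3, 23.9 and 21.8 CPM in control libraries and 22.1, 19.7, 36.8 and 29.5 CPM in cytokine libraries. It was higher in each pair, and its log2 fold change of 0.40 (adjusted p = 0.169) became 0.55 with TMM, where it was called (adjusted p = 0.0409). ZNF841, ZNF600 and ZNF649 were likewise called higher with TMM but not without it, and ZNF600 and ZNF649 also with the block alone.

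Compared with all genes, the fold changes of the chromosome 19 ZNF genes were packed more closely together, as were those of ZNF genes of other chromosomes. The absolute log2 fold change was below 0.5 in 166 of the 220 genes (75.5%) and in 62.3% of all genes. It was below 0.5 in 187 of the 234 ZNF genes of other chromosomes. The 220 genes ranged from -1.24 to 1.78 and those of other chromosomes from -1.37 to 1.88. All genes, a far larger set, ranged from -4.35 to 10.1. The median of the 220 genes was -0.20, that of the ZNF genes of other chromosomes -0.17 and that of all genes -0.17. With TMM the 3 medians were -0.05, -0.02 and -0.02. In pairs A to D the median log2 difference was -0.10, -0.15, -0.32 and -0.24, beside -0.08, -0.12, -0.28 and -0.16 over all genes. Below 0 were 170 of the 220 genes, 126 with TMM. Of the 220 genes 31 had all cytokine libraries below all controls (14.1%) and 4 had them all above (1.82%), whereas 21.9% and 10.8% of all genes did.

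**Figure D3:**
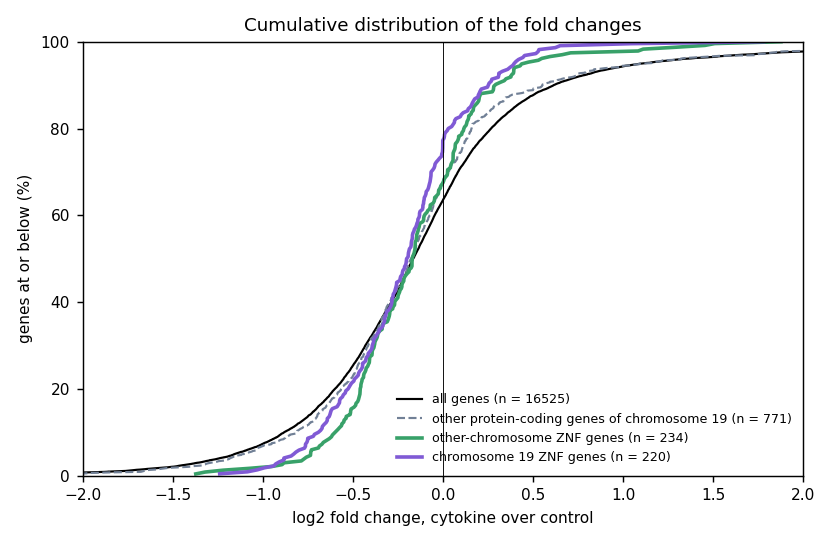
Cumulative percentage of genes (vertical axis) at or below each log2 fold change (horizontal axis, cytokine over control) for 4 overlapping sets of genes. The curve of the 220 chromosome 19 ZNF genes crosses that of all 16525 genes near their medians (-0.20 and -0.17) and is steeper.

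The position along the chromosome was described with 16 clusters, made by joining annotated ZNF genes that start within 1 Mb of the previous one. Members lay in 15 of them, and the 7 clusters with at least 10 members held 202 genes. The cluster from ZNF101 to ZNF254 at chr19:19668796-24129961, which holds ZNF726, ZNF85, ZNF682, ZNF91 and ZNF93, had the lowest median log2 fold change of these 7, -0.37 over 25 genes (-0.22 with TMM). In it 4 genes fell and none rose (3 and none with TMM), and the share of falls was 16%, beside 17.5% of all genes. The 5 genes from ZNF302 to ZNF792 had a median of -0.56 with 1 fall (-0.41 and the same count with TMM). The largest cluster, from ZNF628 to ZNF446 at chr19:55476332-58481230, had 13 falls (22.03%) and 2 rises among 59 genes, with a median of -0.21. With TMM it had 4 falls and 2 rises and a median of -0.06, so that its share of falls lay above that of all genes (17.5%) on the deposited scale and below it (11.7%) with TMM. The clusters from ZNF565 to ZNF573 (26 genes), ZNF575 to ZNF296 (24 genes) and ZNF175 to ZNF331 (36 genes) had medians of -0.20, -0.21 and -0.20, with 4, 3 and 4 falls (2, 2 and 1 with TMM). Near 0 were the medians of the 19 genes from ZNF653 to ZNF791 (-0.08, none called) and of the 13 genes from ZNF557 to ZNF846 (-0.08, 1 fall and 1 rise), and both medians turned to 0.07 with TMM. No test was run between clusters, and genes of a cluster share sequence and are not replicates.

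**Figure D4:**
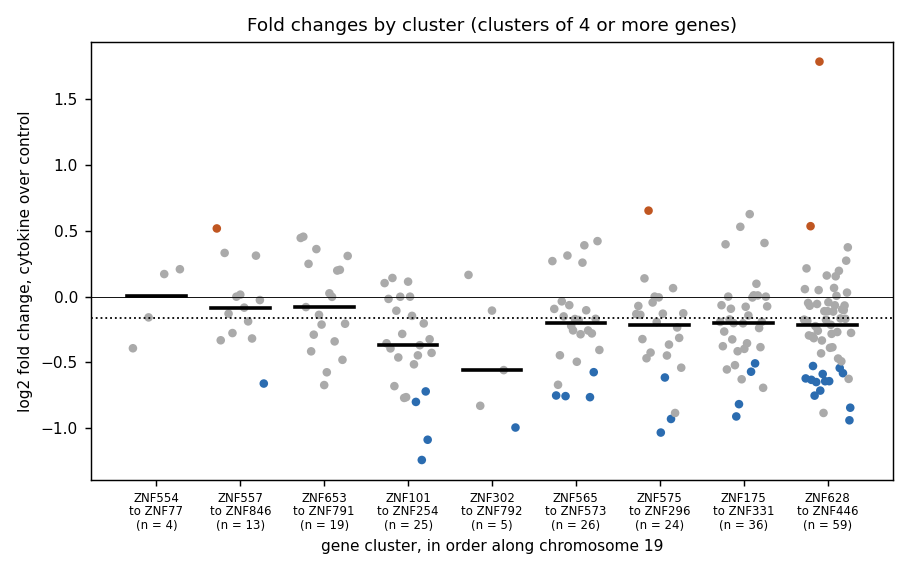
Log2 fold change (cytokine over control) of each gene by cluster, in order along the chromosome, for clusters of 4 or more genes; blue points were called lower, orange points higher, black bars are cluster medians and the dotted line is the median of all genes (-0.17). The medians of the cluster from ZNF101 to ZNF254 (-0.37) and of the 5 genes from ZNF302 to ZNF792 (-0.56) lie furthest below that line. Those from ZNF565 to ZNF573 (-0.20), ZNF575 to ZNF296 (-0.21), ZNF175 to ZNF331 (-0.20) and ZNF628 to ZNF446 (-0.21) also lie below it. Points within a cluster are in order of their symbols.

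The genes were also counted by patterns in their protein sequence. The KRAB pattern is short and also matched DNMT1, a chromosome 19 gene with 0 fingers by pattern. Neither a match nor its absence settles whether a KRAB domain is there. Of the 184 genes with the KRAB pattern 3 rose and 26 fell (14.1%), and of the 36 without it 2 rose and 4 fell (11.1%), with a median log2 fold change of -0.20 in both, beside 9.52% rises and 17.5% falls over all genes. With TMM 7 rose and 11 fell with the pattern and 2 and 2 without it (all genes 13.0% and 11.7%). Per kilobase of annotated exon the median level was 0.963 CPM with and 3.47 CPM without the pattern, a difference that was not tested. The 11 genes with at most 5 fingers had 2 falls and 1 rise, and the 50 genes with at least 16 had 5 falls and 1 rise (1 and 1, and 3 and 3, with TMM). Of the 11 zinc finger genes of chromosome 19 under other names (ZFP, ZSCAN, ZIK and ZBTB), ZSCAN18 rose (log2 fold change 0.55, adjusted p = 0.00296) and ZSCAN1 and ZIK1 fell (-1.52 and -0.56, adjusted p = 0.00351 and 0.0475). ZIK1 was not called with TMM, nor without any one of the 4 controls or cytokine library A or B.

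Promoters were compared because members of a cluster could share them. RefSeq promoters on GRCh38.p14, each 250 bases before to 50 after a start site, were found by symbol for 199 of the 220 genes (251 promoters). Between ZNF726 and ZNF85, which fell most, the stretch TTTGTCTCT near the start was common, and it was searched on both strands after these sequences had been read. It stands in capitals in the promoters of ZNF726 (chr19:23914636-23914935, +) and ZNF85 (chr19:20923001-20923300, +).
ZNF726: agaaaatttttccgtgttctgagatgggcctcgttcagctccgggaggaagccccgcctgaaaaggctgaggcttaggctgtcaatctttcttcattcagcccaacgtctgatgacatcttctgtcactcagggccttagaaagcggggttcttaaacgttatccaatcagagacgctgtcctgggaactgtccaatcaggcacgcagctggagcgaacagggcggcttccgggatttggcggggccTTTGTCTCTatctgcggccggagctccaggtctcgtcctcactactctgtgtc
ZNF85: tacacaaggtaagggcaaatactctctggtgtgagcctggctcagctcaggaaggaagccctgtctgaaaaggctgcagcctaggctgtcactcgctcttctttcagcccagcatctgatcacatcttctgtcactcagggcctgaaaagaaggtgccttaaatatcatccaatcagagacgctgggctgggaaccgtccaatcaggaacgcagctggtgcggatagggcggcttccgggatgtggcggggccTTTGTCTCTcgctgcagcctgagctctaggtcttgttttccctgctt
It occurred in 15 of the 23 promoters of the cluster from ZNF101 to ZNF254 (65.2%), in 0.601% of all 35116 promoters, in 6 of 261 promoters of ZNF genes on other chromosomes (2.30%) and in no other promoter of the 251. Among the 33 promoters of genes that fell it occurred in 2 (6.06%), those of ZNF726 and ZNF85, beside 15 of the 251 (5.98%). The stretch was read from these 2 promoters, so their hits were fixed in advance and say nothing about the falls.

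The ISRE, a motif of interferon-responsive promoters, was searched as letters only. Its core, 2 copies of GAAA with any 2 bases between them on either strand, was in 2 of the 251 promoters (0.797%) and in 3.57% of all promoters. None of the 33 promoters of genes that fell and none of the 9 promoters of genes that rose held it. A match is not a bound site, and the absence of these letters says nothing about the factors that bind them.

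The machinery that KRAB proteins call on was read from a list of 22 genes. Of these 1 rose (4.55%) and 3 fell (13.6%), beside 9.52% and 17.5% of all genes. With TMM 2 rose and 1 fell, beside 13.0% and 11.7% of all genes. Counts this small cannot be told apart from those shares. TRIM28, the adaptor bound by KRAB, had means of 267 ± 27.8 and 276 ± 34.5 CPM (SD, n = 4) and was not called (log2 fold change 0.05, adjusted p = 0.826). SETDB1 had 44.2 ± 2.49 and 57.4 ± 9.49 CPM, a log2 fold change of 0.36 (adjusted p = 0.0670) that was called with TMM at 0.51 (adjusted p = 0.0295). MORC3, a chromatin ATPase, rose from 14.7 ± 0.716 to 30.0 ± 4.24 CPM (log2 fold change 1.01, adjusted p = 0.000253). UHRF1, which reads hemimethylated DNA during replication, fell from 8.42 ± 2.42 to 2.74 ± 1.41 CPM (log2 fold change -1.66, adjusted p = 0.00269). CBX5 (HP1α) and EHMT2 (G9a) fell with log2 fold changes of -0.64 and -0.61 (adjusted p = 0.00156 and 0.0129), and with TMM neither was called, at -0.49 (adjusted p = 0.0122) and -0.46 (adjusted p = 0.0908).

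The fold changes of the ZNF genes of other chromosomes reached slightly further, from -1.37 to 1.88, against -1.24 to 1.78 on chromosome 19. ZNF267 rose from 6.22 ± 1.05 to 23.0 ± 2.30 CPM (SD, n = 4, log2 fold change 1.88), ZNF165 rose with a log2 fold change of 1.51 and ZNF292, a large multi-finger protein, with 1.45. ZNF365 (-1.37), ZNF185 (-1.32) and ZNF831 (-1.22) fell most, and ZNF185 encodes a LIM-domain protein that the symbol pattern also takes. By pattern 0 fingers were found in ZNF365 and in ZNF185, and 1 in ZNF831. Of the 8 libraries of ZNF831 only the controls (0.720 to 1.23 CPM) were above the 0.5 CPM needed for listing. Its cytokine libraries had 0.256 to 0.462 CPM, on 12 to 23 reads. These 6 genes had adjusted p-values of 8.31e-06 to 0.00785.

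Of 20 listed antisense or divergent RNAs named after a chromosome 19 ZNF gene, 3 fell and none rose, against 17.5% and 9.52% of all genes. ZNF528-AS1 fell (log2 fold change -0.82, adjusted p = 0.0338) as did ZNF528 itself. ZNF8-DT (-1.03, adjusted p = 0.0120) and ZNF529-AS1 (-0.67, adjusted p = 0.0456) fell while ZNF8 and ZNF529 were not called.

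The libraries differed in ways the treatment does not explain. The names of A and B end in 21 and those of C and D in 22, and what these endings stand for is not given in the sources used here. In controls the ZNF genes were higher in the libraries ending in 22 by a median of 0.40 on the log2 scale (188 of 220 genes), against 0.18 over all genes, and in cytokine libraries by 0.28, against 0.06. Within the libraries ending in 21 the median log2 fold change was -0.15, and within those ending in 22 it was -0.28 (all genes -0.10 and -0.22). For none of the 220 genes did the effect differ between the endings at a false discovery rate of 0.05 (3 at an unadjusted p under 0.05, limma interaction). Reads outside the listed genes were 20.1% to 26.6% of a library and highest in library D of both groups. All 7 beta-cell markers were listed, and none of the 5 leukocyte and endothelial markers. The 2 of 3 stromal markers that are listed summed to 0.796 to 1.54 CPM in control and 2.04 to 12 CPM in cytokine libraries. The rise was that of VIM (0.637 to 1.09 and 1.87 to 11.7 CPM), while COL1A1 had 0.0635 to 0.449 and 0.0427 to 0.844 CPM. Alpha-cell markers summed to 1682 to 2943 and 2002 to 2833 CPM. Their part in the changes of the ZNF genes was not tested.

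The share of chromosome 19 ZNF genes called was also below that of all genes, in both directions, under each of the following ways of scaling or testing. The median of ratios gave 9 rises and 13 falls (background 13.3% and 11.4%), quantile normalization 9 and 11 (11.2% and 13.3%), edgeR with TMM 9 and 14 (13.0% and 11.6%) and DESeq2 9 and 16 (14.3% and 13.0%). edgeR with TMM and the block gave 12 and 24 (15.8% and 16.3%). A pseudocount of 1 gave 3 and 27 (9.00% and 16.0%), and limma without an intensity trend 3 and 32 (9.37% and 18.2%).

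**Figure D5:**
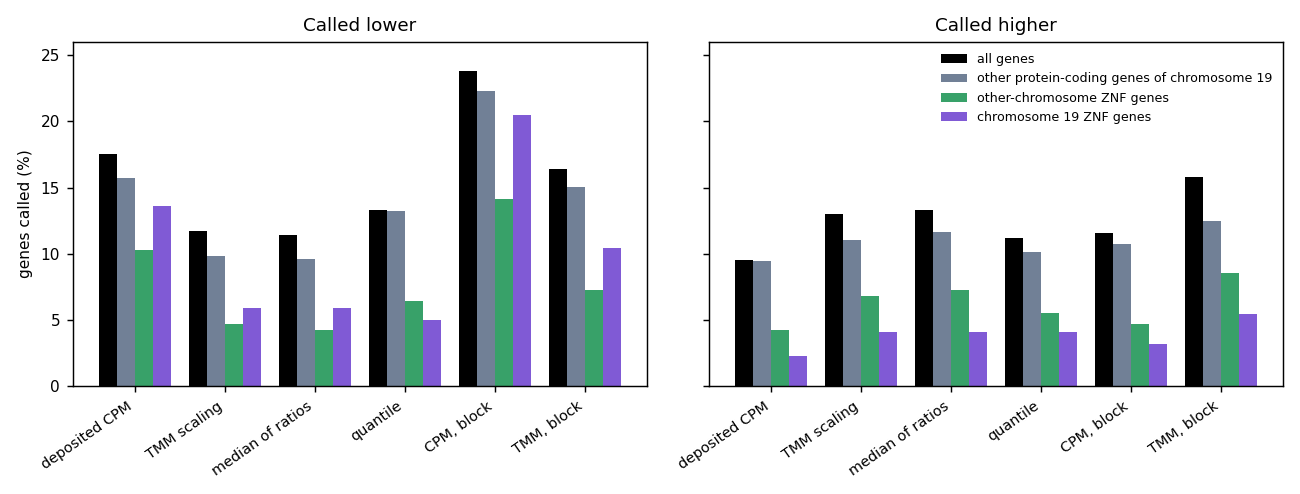
Percentage of genes called lower (left) and higher (right) in 4 overlapping sets under 6 ways of scaling and testing, where block means a fit with a term for each of the 4 pairs. The chromosome 19 ZNF genes lie below all genes in each of these 6, in both directions, while the falls among them range from 5.00% (quantile) to 20.5% (CPM with the block).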

How the data were processed

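RNA-seq values were taken from 8 libraries of EndoC-βH5 cells, 4 untreated and 4 exposed to cytokines for 48 h. Per the methods and the submitters' processing notes, the authors filtered the reads, aligned them to GRCh38 with TopHat2 2.1.1, counted them with HTSeq 0.9.1 on Ensembl 107 genes and deposited CPM (counts scaled to the library total) of genes above 0.5 CPM in at least 4 samples. The library kit marks strand, and counting is stated only to have used default settings. Another 4 columns of values were not used here. Every CPM value was a whole multiple of 1 read (100%, tolerance 0.001), so reads were recovered: totals were 46767972 to 51145634, with 36577438 to 40117636 on listed genes. A count of 0 allows 3 reads, which covers counting error only.

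The main test was limma 3.58.1 (R 4.3.3), with its intensity trend, on log2(CPM + 0.1). P-values were adjusted by Benjamini-Hochberg over 16525 genes, and genes were called at an FDR below 0.05 and an absolute log2 fold change over 0.5. Fold changes on this scale understate those of low genes. Scaling (TMM, median of ratios, quantile), pseudocounts of 0.5 and 1, a minimum mean level of 1 CPM, the trend, the thresholds, edgeR 4.0.16 and DESeq2 1.42.0 on recovered reads, and leaving out each library were tried. TMM with the replicate block was added after seeing the data. The scripts were tested on simulated data.

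Pairs A to D come from the column names. Deviations from the group means correlated across genes by 0.457, 0.504, 0.748 and 0.681 within pairs, but crossing A and B gave 0.447 and 0.489, so these are not told apart. Libraries of a group differed by a chi-square of at least 5.90 per gene, so none was a copy. A and B were by far the closest, at 13.3 in controls and 5.90 in cytokine libraries. The other comparisons within a group gave 66.9 to 296.

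Positions, lengths, overlaps and coding sequences are from GENCODE 29, in which all 220 genes were found and 29 further ZNF genes of chromosome 19 are annotated that were not analysed here. Of the 220 genes, 205 were above 0.5 CPM in all 8 libraries, 8 in all control but not all cytokine libraries and 4 the reverse. Exons of 71 of them overlap an antisense gene. Of their 100-base windows, none occurred in another gene for 125 and over 20% for 8, none of which was called. Fingers were matched as C, 2 residues, C, 12 residues, H, 3 or 4 residues and H or C, and the KRAB A box as a short pattern in the first 200 residues. Promoters are from RefSeq. Named genes were up to 10 rises and 10 falls by log2 fold change among called genes whose libraries did not overlap, the 5 of highest mean CPM, 10 of known role, all of the co-repressor list and 3 rises and 3 falls of other chromosomes. The genes and lists were chosen with earlier results of these data known. Python 3.11.15 was used with numpy 2.4.6, scipy 1.17.1, pandas 2.3.3 and matplotlib 3.10.9.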

Additional observations from a re-analysis of the deposited data

Results flagged for a closer look

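Single libraries stood apart from the other 3 of their group, by Dixon's test, in 5 of 82 groups of 4 libraries, and chance flags about 1 in 20. They were control library D of ZNF726 (1.90 CPM), cytokine library D of ZNF682 (2.91 CPM), control library D of ZNF224 (18.97 CPM), cytokine library D of ZNF292 (108 CPM) and control library C of SETDB1 (40.5 CPM). Library D, which gave 4 of the 5, also had the largest share of reads outside the listed genes (26.6% in control and 26.5% in cytokine-treated cells). Their part in these values was not tested. Without control library D, ZNF726 stayed called.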

How the results depend on the processing

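Which genes were called depended on the scaling. The chromosome 19 ZNF genes called higher (5) and lower (30) became 9 and 13 with TMM or the median of ratios, 9 and 11 with quantile normalization, 9 and 14 with edgeR and TMM, 9 and 16 with DESeq2 and 0 and 0 with treat, while 3 rose with a pseudocount of 1 or without the trend. Those of other chromosomes (10 and 24) became 16 and 11 with TMM, 17 and 10 with the median of ratios, 20 and 12 with DESeq2, and 4 and 2 with treat, with 15 falls under quantile normalization, 12 with edgeR and TMM and 40 at the FDR alone. All genes called (1574 and 2896) became 732 and 646 with treat, with 1883 falls under the median of ratios and 1918 with edgeR and TMM. The co-repressor list (1 and 3) became 2 and 1 with TMM, the median of ratios, edgeR with TMM and DESeq2, and 1 fell with treat. The median log2 fold change of the ZNF genes of other chromosomes moved from -0.17 to -0.0186 with TMM, -0.00868 with the median of ratios and -0.0170 with DESeq2.

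With the replicate block, TMM gave 12 rises among the chromosome 19 ZNF genes in edgeR and in limma, 20 among those of other chromosomes, 2607 (edgeR) and 2614 (limma) among all genes, and 2 rises and 1 fall in the co-repressor list, with a median on other chromosomes of -0.0186 in limma. The block without TMM gave 7 rises and 45 falls. Leaving out each library in turn gave 2 to 6 rises and 15 to 33 falls on chromosome 19 (fewest falls without control D or cytokine library A, at 15), 8 to 11 and 14 to 26 on other chromosomes, and medians of -0.27 to -0.13 and -0.24 to -0.12.

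Only genes near 0 changed sign, and none of them was called under these alternatives. ZNF358 came to 0.0225 with TMM in limma (with and without the block), 0.0213 in edgeR with TMM and the block, 0.0324 with the median of ratios and 0.0028 with DESeq2. ZNF350 came to 0.15 with TMM in limma (with and without the block), 0.16 with the median of ratios and with edgeR, TMM and the block, 0.20 with quantile normalization, 0.17 with edgeR and TMM, 0.012 without TMM, 0.18 with DESeq2, and 0.00036 and 0.0012 with pseudocounts of 0.5 and 1. ZNF587 came to -0.00086 with edgeR without TMM. Without a library the ranges were -0.291 to 0.0280 (ZNF358), -0.0842 to 0.113 (ZNF350), -0.0786 to 0.123 (ZNF587) and -0.0220 to 0.141 (TRIM28). Of the other single-gene comparisons, 583 kept direction and call, 46 lost the call and 12 gained one, and ZNF835 moved to -0.67 within the libraries ending in 21 and -1.21 within those ending in 22. With a library left out, 274 kept direction and call and 26 lost the call. The causes were not tested. Genes under 20 reads in a library (13) are the least precise.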
